A study of Mus musculus with 4 samples.

Results

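The 8 genes described here encode transcription factors that set and maintain the identity of the intestinal epithelium: the homeodomain factors Cdx1 and Cdx2, the nuclear receptors Hnf4a and Hnf4g, the zinc finger factors Gata4, Gata5 and Gata6, and the cut-homeodomain factor Onecut2. The probe sets described are all those whose platform annotation names one of these genes and no other gene. That gave 20 of the 34945 probe sets with 1 gene, and 8 of 18193 genes. Each probe set combines several short oligonucleotides against a transcript.

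CDX2 is the factor that distinguishes intestinal from gastric epithelium in the embryo, and it stays on in the adult, where CDX1 is its close relative. HNF4A and HNF4G bind the same type of site and drive the genes of the brush border and of lipid handling in the enterocyte, the absorptive cell of the intestine. GATA4 is a factor of the proximal small intestine that keeps jejunal genes on and ileal genes off, GATA6 is made along the whole gut, GATA5 is the third relative in the epithelium, and ONECUT2 marks the proximal small intestine.

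The arrays measured total RNA of crypts from the mouse jejunum, strain label C57BL/6J enriched, with 2 biological replicates in each of 2 groups. Knockout mice carried floxed YY1 alleles (YY1f/f) together with Vil-Cre-ERT2, a tamoxifen-activated Cre recombinase under the Villin promoter, which is active throughout the intestinal epithelium, and tamoxifen ran for 4 days. The other group is labelled control and its genotype, Cre included, is not given. The treatment text is the same for all 4 samples and can be read as tamoxifen for both groups or for the knockout mice alone; age and sex are not stated. Effects of Cre, and of tamoxifen if the controls had none, cannot be told apart from those of Yy1 deletion. The targeted gene, which encodes a zinc finger factor, was called lower by all 4 probe sets and fell in the brightest from 1648 and 1681 in the controls to 69.4 and 68.1 in the knockouts. Whether the oligonucleotides fall inside the excised exons was not examined here.

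Values below are intensities as deposited, given for control replicates 1 and 2 and then for knockout replicates 1 and 2. Differences are knockout minus control on log2(intensity + 16) ± the standard error (SE) of a limma fit over all 45037 probe sets that are not array controls, with n = 2 arrays per group, and a probe set was called at a Benjamini-Hochberg adjusted p under 0.05. Intensities of different probe sets depend on their oligonucleotides, so levels are compared between arrays and not between genes. The median of 27 dim control probe sets for bacterial genes, between 31.9 and 35.6, serves as a mark of background, and the lowest member value was 53.7. The correlation across genes (not independent replicates) was 0.996 between the controls and 0.993 between the knockouts. The 3' minus 5' difference of the Gapdh control probe sets, a sign of RNA quality, was 1.44 and 1.39 in the controls and 1.70 and 1.64 in the knockouts on the log2 scale; its part in the results below was not tested. The epithelial markers Epcam, Cdh1 and Krt8 were bright in every array, with lowest values of 9077, 3218 and 7189, and of 8 epithelial markers 0 were called by limma. At an unadjusted p under 0.05 there was 1, Vil1, the villin gene, at 6829 and 6754 against 4000 and 5520 (-0.53 ± 0.16, adjusted p = 0.0511 by limma). In this list 1 gene was called lower with the brightness filter, median centring, the trended and robust prior, the replicate block, the gene-level fit and without knockout replicate 2. The crypt markers Olfm4 and Mki67 were bright, with lowest values of 3332 and 4646, while Lgr5 was dim, at 59.6 to 69.2.

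Promoter windows are shown for the members with an entry in the RefSeq table (3 of 8: Cdx2, Hnf4a and Gata5). Windows are also shown for Lct and Fabp1, target genes of these factors that are described further on. Each is the 250 bases before the start site, 5' to 3' in the direction of the gene, from RefSeq on GRCm38.p6. Capitals mark any match, on either strand, to 4 short motifs spelled out after the sequences. The Cdx2 window is chr5:147307250-147307499 on the minus strand, and the 2 Hnf4a windows are chr2:163506607-163506856 and chr2:163546905-163547154 on the plus strand. The Gata5 window is chr2:180334680-180334929, the Lct window chr1:128328319-128328568, both on the minus strand, and the Fabp1 window chr6:71199629-71199878 on the plus strand.
Cdx2: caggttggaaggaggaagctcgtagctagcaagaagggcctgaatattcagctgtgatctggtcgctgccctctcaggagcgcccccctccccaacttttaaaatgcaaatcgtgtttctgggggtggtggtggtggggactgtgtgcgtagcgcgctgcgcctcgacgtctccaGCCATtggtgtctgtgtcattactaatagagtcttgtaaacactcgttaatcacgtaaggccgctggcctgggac
Hnf4a, upstream promoter: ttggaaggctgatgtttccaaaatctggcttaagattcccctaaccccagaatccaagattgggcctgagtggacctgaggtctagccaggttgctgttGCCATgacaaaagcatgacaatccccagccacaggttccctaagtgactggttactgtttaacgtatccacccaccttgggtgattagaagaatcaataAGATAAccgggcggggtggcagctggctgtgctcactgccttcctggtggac
Hnf4a, downstream promoter: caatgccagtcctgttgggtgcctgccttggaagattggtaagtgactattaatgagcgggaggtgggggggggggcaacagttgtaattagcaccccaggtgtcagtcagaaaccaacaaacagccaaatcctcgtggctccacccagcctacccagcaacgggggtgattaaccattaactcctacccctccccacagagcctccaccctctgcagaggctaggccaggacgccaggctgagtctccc
Gata5: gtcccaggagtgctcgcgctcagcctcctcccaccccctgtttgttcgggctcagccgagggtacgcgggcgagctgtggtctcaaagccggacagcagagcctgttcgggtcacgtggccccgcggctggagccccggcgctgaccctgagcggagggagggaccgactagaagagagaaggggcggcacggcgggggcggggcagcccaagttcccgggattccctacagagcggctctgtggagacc
Lct: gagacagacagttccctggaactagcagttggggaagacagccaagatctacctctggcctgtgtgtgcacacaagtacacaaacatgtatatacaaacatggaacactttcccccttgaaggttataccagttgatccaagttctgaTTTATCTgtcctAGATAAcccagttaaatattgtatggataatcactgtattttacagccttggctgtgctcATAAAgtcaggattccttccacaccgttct
Fabp1: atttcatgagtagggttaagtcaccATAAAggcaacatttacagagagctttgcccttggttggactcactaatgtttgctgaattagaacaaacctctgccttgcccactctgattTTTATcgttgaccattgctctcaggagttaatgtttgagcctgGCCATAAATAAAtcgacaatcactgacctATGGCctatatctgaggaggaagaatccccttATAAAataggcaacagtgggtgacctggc

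The core searched for YY1 was GCCAT, and this count, like the others, took both strands together. For CDX factors the letters were TTTAT, the core of their usual site. Sites of the zinc finger factors described here were searched by the letters AGATAA, which hold their common core. For the nuclear receptors HNF4A and HNF4G the half-site letters were CAAAGT.
The upstream Hnf4a window held a GATA match from 52 to 47 bases before the start and the downstream one held no letters of the 4 motifs. The Cdx2 window shared with the upstream Hnf4a window a YY1 core, which lay 75 to 71 and 151 to 147 bases before the start. The Gata5 window also held no match. The Lct window held 2 GATA matches, on opposite strands at 101 to 96 and 90 to 85 bases before the start. It also held 2 CDX matches, of which the one at 102 to 98 overlaps the first GATA match and the other lies at 30 to 26. The Fabp1 window held 5 CDX matches and 2 YY1 cores, and the first YY1 core, at 90 to 86, overlaps a CDX match, while the CDX matches at 87 to 83 and 83 to 79 overlap each other. Such matches are common: of 32851 windows of this length, 32.9% held the YY1 core, 37.3% the CDX letters, 12.6% the HNF4 half-site and 9.99% the GATA letters. A match is a stretch of letters and was not tested as a binding site. Sequence outside these windows was not searched.

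Of the 20 probe sets, 9 were called lower and 1 higher in the knockout, against 20.0% of all probe sets called in either direction, 9.09% lower and 10.9% higher. Among the 22518 probe sets above the median brightness, which include 19 of the 20, the share called was 32.0%. By the brightest probe set of each gene, 4 of the 8 genes were lower and 1 higher, against 22.9% of all genes called, 10.3% lower and 12.6% higher. Without control replicate 1 this count was 2 lower and 0 higher, and without control replicate 2 it was 1 lower and 0 higher. The lower calls fell on 5 genes: Gata5 and Hnf4g with every probe set, Gata6 with 2 of 3, Gata4 with 1 of 2 and Cdx2 with 1 of 2. Onecut2 was called higher with 1 of 3, and Hnf4a and Cdx1 were not called with any. The groups did not overlap in 19 of the 20 probe sets, where 59.9% of all probe sets showed this. By the brightest probe sets, the median difference was -0.35 over the 8 genes and 0.01 over all genes. The number of calls depended on the control arrays: 5 probe sets were called without control replicate 1 and 3 without control replicate 2.

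**Figure D1:**
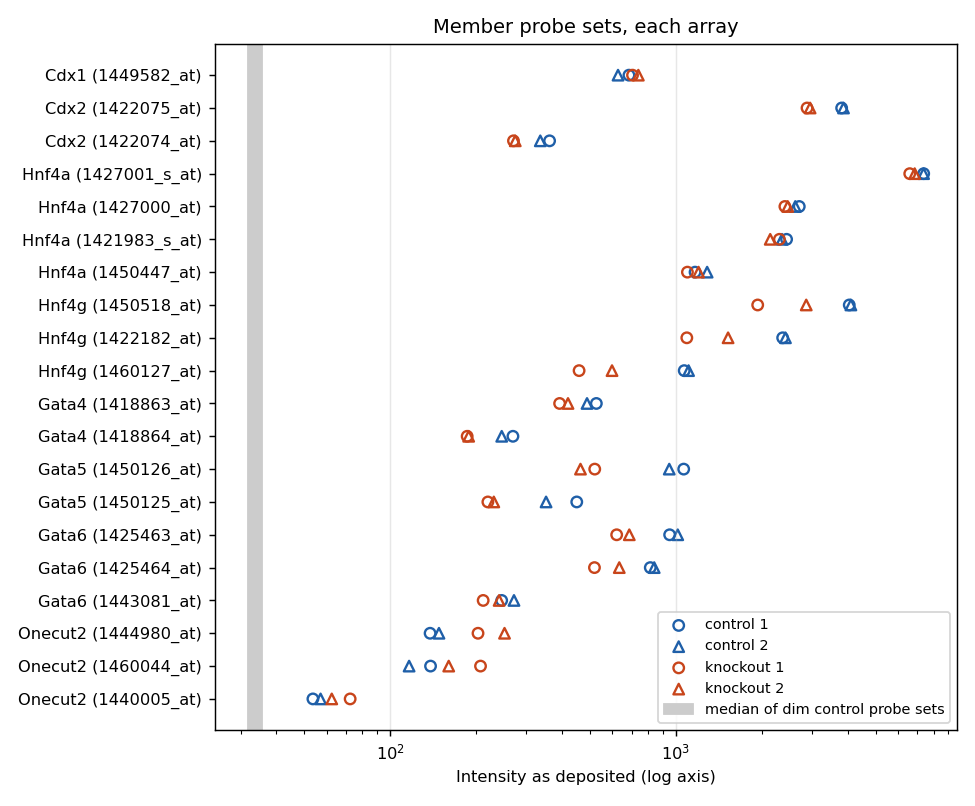
Intensity of each of the 20 member probe sets in the 4 arrays on a log axis (blue, control; orange, knockout; circles, replicate 1; triangles, replicate 2), with the range of the dim control medians, 31.9 to 35.6, as a grey band. For Gata5 and Hnf4g both knockout arrays lie well to the left of both controls, while for Hnf4a the 4 arrays lie close together.

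**Figure D2:**
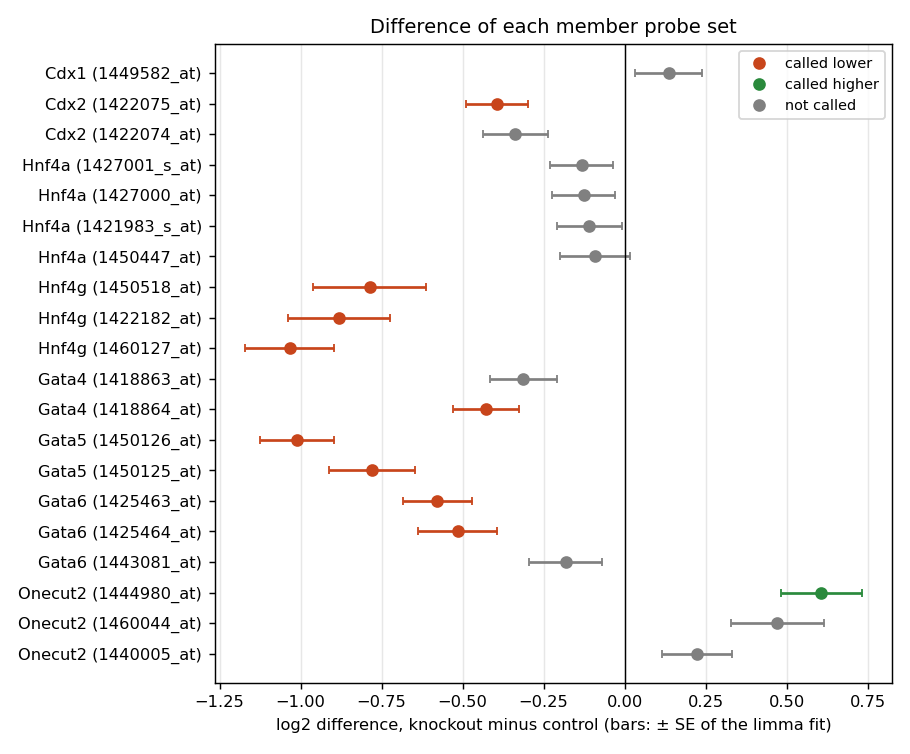
Difference of each member probe set, knockout minus control on log2(intensity + 16), as the fitted value with its SE (n = 2 arrays per group). The 9 probe sets called lower lie between -1.03 and -0.39 and the 1 called higher at 0.61; grey points were not called.

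Cdx2 was modestly lower in both of its probe sets, of which 1 was called, and Cdx1 was not called. The brighter Cdx2 probe set (1422075_at) stood at 3805 and 3862 in the controls and 2879 and 2951 in the knockouts. Replicates lay within a narrow range in both groups and the groups did not overlap, with control over knockout at 1.31 and a difference of -0.39 ± 0.10 (adjusted p = 0.0285 by limma). The dimmer probe set (1422074_at) read 362 and 336 against 270 and 274, also without overlap, and its difference of -0.34 ± 0.10 missed the threshold (adjusted p = 0.0540 by limma). It passed in 3 of its 11 alternatives. These were a pseudocount of 64, the brightness filter and quantile normalization (adjusted p = 0.0331, 0.0351 and 0.0451 by limma). The call on the brighter probe set did not hold with any one of the 4 arrays left out (adjusted p between 0.0595 and 0.137 by limma) or with a pseudocount of 1 (0.0566), while its value stayed between -0.41 and -0.38 in the former.

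Cdx1, which in the adult is strongest in the crypt, has 1 probe set (1449582_at), at 685 and 628 in the controls and 705 and 739 in the knockouts. Both knockout values lay above both controls, but the nearest arrays of the 2 groups (705 and 685) lay closer together than the controls did. The difference of 0.14 ± 0.10 was not called (adjusted p = 0.425 by limma). The log2 ratio of Cdx1 to Cdx2 within an array moved by 0.53 from control to knockout, from -2.45 and -2.59 to -2.005 and -1.97, with no overlap between the groups. The exact two-sided permutation test gave p = 0.333, the smallest that 2 arrays against 2 can give, as it did for each of the 5 ratios of related factors examined here (0.333 after Benjamini-Hochberg adjustment over the 5).

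Hnf4g fell, while Hnf4a was not called: 0 of its 4 probe sets passed by limma, and 0 had an unadjusted p under 0.05. The brightest Hnf4g probe set (1450518_at) read 4046 and 4099 in the controls and 1934 and 2860 in the knockouts, a difference of -0.79 ± 0.18 (adjusted p = 0.0198 by limma). The second (1422182_at) read 2366 and 2419 against 1093 and 1524 (-0.88 ± 0.16, adjusted p = 0.00879). The dimmest (1460127_at) read 1070 and 1108 against 459 and 598 (-1.03 ± 0.14, adjusted p = 0.00326). In all 3 the controls lay close together, and knockout replicate 1 lay below knockout replicate 2. Against the control mean, the log2 difference of the brightest probe set was -1.07 in knockout replicate 1 and -0.51 in knockout replicate 2. Without knockout replicate 1 it was -0.51 (adjusted p = 0.0446 by limma). The call on this probe set was lost without either control array (0.0838 and 0.0893) and with a trended and robust prior (0.0514), and that on the second probe set without control replicate 2 (0.0518). The dimmest stayed called in each of its 11 alternatives, with adjusted p up to 0.0251.

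Hnf4a has 4 probe sets, of which 1427001_s_at and 1421983_s_at carry the suffix for oligonucleotides shared by several transcripts. The brightest (1427001_s_at) read 7370 and 7364 in the controls and 6586 and 6853 in the knockouts (-0.13 ± 0.10, adjusted p = 0.410 by limma). The others gave -0.13 ± 0.10, -0.11 ± 0.10 and -0.09 ± 0.11, with adjusted p between 0.431 and 0.620. For 1450447_at the groups overlapped, at 1168 and 1287 against 1098 and 1201, and it was the only member probe set in which they did. No alternative run called a Hnf4a probe set; the smallest adjusted p among them was 0.0916 by limma. Hnf4aos, the antisense gene at the Hnf4a locus, has a probe set of its own (named here after its values were seen), which fell from 187 and 167 to 117 and 108 (-0.59 ± 0.11, adjusted p = 0.00950 by limma). The log2 ratio of Hnf4g to Hnf4a, by their brightest probe sets, was -0.86 and -0.84 in the controls and -1.76 and -1.26 in the knockouts, a change of -0.66 that was unequal between the knockout arrays (-0.40 without knockout replicate 1 and -0.91 without knockout replicate 2).

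All 3 GATA genes had at least 1 probe set called lower, 5 of 7 in total, with the largest difference in Gata5. The brighter Gata5 probe set (1450126_at) read 1066 and 949 in the controls and 520 and 464 in the knockouts, so that control over knockout was 2.05, and its difference was -1.01 ± 0.11 (adjusted p = 0.00205 by limma). The other (1450125_at) read 450 and 352 against 220 and 231 (-0.78 ± 0.13, adjusted p = 0.00750). The groups were far apart in both, and the knockout arrays lay close together, unlike for Hnf4g. Both stayed called in every alternative run, with adjusted p up to 0.0175 for the first and 0.0416 for the second. The probe set of Gata5os, the antisense gene beside Gata5 (also named after its values were seen), gave 294 and 297 against 285 and 290 (-0.04 ± 0.10, adjusted p = 0.846 by limma).

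Gata6 is the GATA factor whose loss in mice affects crypt cells and secretory lineages. Its brightest probe set (1425463_at) read 951 and 1016 in the controls and 621 and 687 in the knockouts (-0.58 ± 0.11, adjusted p = 0.00990 by limma). The next (1425464_at) read 814 and 840 against 519 and 634 (-0.52 ± 0.12, adjusted p = 0.0245). The dimmest (1443081_at) read 246 and 271 against 212 and 241, with groups close to overlapping, and was not called (-0.18 ± 0.11, adjusted p = 0.321). The call on the brightest was lost without control replicate 2 (0.0691), and that on the next without either control array (0.0960 and 0.120) or knockout replicate 1 (0.104).

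For Gata4 the dimmer probe set (1418864_at) read 269 and 246 in the controls and 186 and 188 in the knockouts (-0.43 ± 0.10, adjusted p = 0.0252 by limma). The brighter (1418863_at) read 527 and 489 against 392 and 419, also without overlap, and its difference of -0.31 ± 0.10 missed the threshold (adjusted p = 0.0752). The call on the dimmer one was lost with any one of the 4 arrays left out (adjusted p between 0.0593 and 0.152 by limma). The brighter one passed with a pseudocount of 64 (0.0449) and among probe sets above the median brightness (0.0496).

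Set against each other within an array, the GATA ratios did not overlap between the groups. The log2 ratio of Gata4 to Gata5 was -0.99 and -0.93 in the controls and -0.39 and -0.14 in the knockouts, a change of 0.70. That of Gata5 to Gata6 was 0.16 and -0.10 against -0.25 and -0.55, a change of -0.43, and here the 2 controls lay farther apart than the nearest arrays of the 2 groups. The ratio of Gata4 to Gata6 changed by 0.26 (-0.83 and -1.03 against -0.64 and -0.69). Again the controls lay farther apart than the nearest arrays of the 2 groups. These ratios rest on the brightest probe set of each gene. By the dimmest ones the order of Gata4 and Gata6 is reversed, with Gata4 at -0.43 ± 0.10 and Gata6 at -0.18 ± 0.11. Gata5 still had the largest fall of the GATA genes, at -0.78 ± 0.13.

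**Figure D3:**
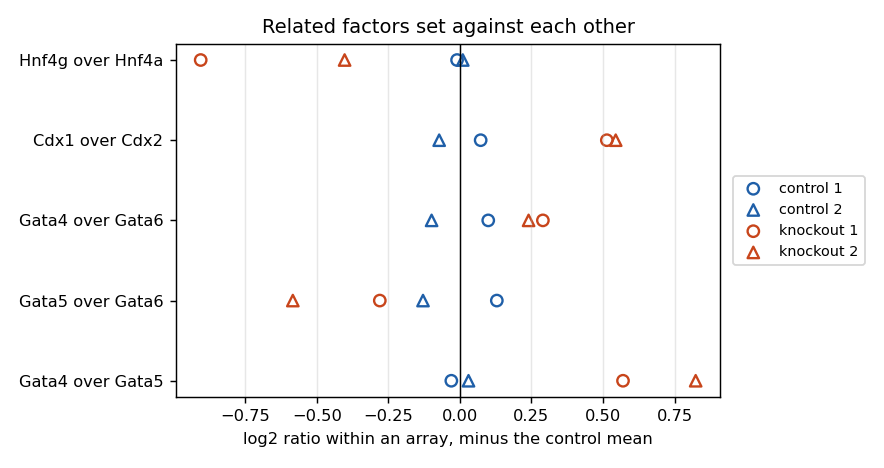
Log2 ratio of related factors within each array, by the brightest probe set of each gene, shown relative to the mean of the 2 control arrays (blue, control; orange, knockout; circles, replicate 1; triangles, replicate 2). The ratio of Cdx1 to Cdx2 and that of Gata4 to Gata5 lie to the right of the controls in both knockout arrays, by 0.53 and 0.70 on average, and that of Hnf4g to Hnf4a lies to the left by 0.66.

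Onecut2 was the only member called higher. Its brightest probe set (1444980_at) read 138 and 148 in the controls and 203 and 252 in the knockouts, knockout over control at 1.59 (0.61 ± 0.12, adjusted p = 0.0149 by limma). The second (1460044_at) read 139 and 117 against 207 and 160 (0.47 ± 0.14, adjusted p = 0.0581). The dimmest (1440005_at), the member closest to background, read 53.7 and 57.1 against 72.5 and 62.5 (0.22 ± 0.11, adjusted p = 0.205). The groups did not overlap in any of the 3. The call was lost without either control array (0.0882 and 0.0597), and the second probe set passed without knockout replicate 2 (0.0240). The related Onecut1 and Onecut3 were not called, at 0.12 ± 0.13 and 0.01 ± 0.10.

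For each member called with its brightest probe set, the 3 genes with the nearest profile over the 4 arrays were taken, by the root mean square distance of centred log2 values among 10635 genes above the median brightness. With 4 arrays many genes share a profile, so these are descriptions. For Hnf4g they were Slc41a2 (distance 0.0238), the brush border metalloprotease gene Mep1b (0.0246) and the brush border cadherin gene Cdhr5 (0.0282). For Gata5 they were Pisd-ps3 (0.0355), Letmd1 (0.0416) and Rbmx (0.0457), and for Gata6 Elp4 (0.0165), Plpbp (0.0190) and Map3k21 (0.0211). For Cdx2 they were the coactivator genes Ncoa6 (0.0067) and Crebbp (0.0098) with Slc44a3 (0.0098) between them, and for Onecut2 Clic4 (0.0299), Pdia5 (0.0378) and Paqr8 (0.0456).

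Other regulators that work with or beside these factors moved in both directions. Of 8 measured genes of the GATA family and its cofactors, among them Gata1, Gata2, Gata3 and the cofactors Zfpm1 and Zfpm2, 0 were called by limma; 1 (Gata1, -0.27) had an unadjusted p under 0.05, and 1 was called lower with the dimmest probe set per gene. Of 9 genes of the CDX group and its partners 2 fell, Hoxa5 (-0.54 ± 0.11) and Isx (-0.35 ± 0.10), an intestinal homeobox gene activated by CDX2, and Cdx4 lay at background (13.1 to 17.0). Of 14 HNF network genes 4 fell: Ppargc1a (-1.79 ± 0.18), a coactivator of HNF4A, Rxra (-0.58 ± 0.11), Creb3l3 (-0.88 ± 0.22) and Nr2f1, the last at background (8.56 to 21.6). Foxa1 missed the threshold (0.34 ± 0.10, adjusted p = 0.0530 by limma; 0.0315 to 0.250 over its alternatives), and Foxa2, Foxa3 and Nr5a2 gave -0.12 ± 0.11, -0.02 ± 0.10 and 0.13 ± 0.11. Of 28 other gut epithelial factors 6 fell and 3 rose. The falls with the smallest p were Vdr (-1.23 ± 0.14), the vitamin D receptor, Maf (-1.50 ± 0.21), a factor of the mature enterocyte, Ppara (-0.78 ± 0.14) and Nr1i3 (-0.86 ± 0.19), and the rises were Grhl1 (1.20 ± 0.13), Grhl2 (0.57 ± 0.11) and Ehf (0.39 ± 0.10). Over all 59 genes of these 4 lists 12 were lower and 3 higher, against 10.3% lower and 12.6% higher among all genes with 1 probe set each. In the CDX group 0 genes were lower without either control array or without knockout replicate 1, and 1 was without knockout replicate 2. In the HNF network 1 was lower without either control array and 2 without knockout replicate 1. Among the other factors, 2 were lower without control replicate 1, and 1 was higher without control replicate 1 or knockout replicate 1.

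Lists of known target genes of the factors, drawn up from general knowledge, held many genes that fell. Of 19 measured CDX2 targets 10 fell and 1 rose (median -0.50). Of 25 HNF4 targets 15 fell and 0 rose (median -0.78), and of 14 GATA targets 7 fell and 0 rose (median -0.58). Among all genes 10.3% fell, 12.6% rose and the median was 0.01. All CDX2 and HNF4 targets and 13 of the 14 GATA targets lay above the median brightness, where calls were more frequent. Of the probe sets above it 32.0% were called in either direction, against 20.0% of all probe sets. The all-gene shares therefore overstate the contrast for these lists. The lists share genes (1 between CDX2 and HNF4, 1 between CDX2 and GATA, 4 between HNF4 and GATA), Hnf4a itself is on the GATA list, and over the 52 genes together 28 fell and 1 rose. Isx, Creb3l3 and Ppara, counted above among the regulators that fell, are on the target lists too. Lct, the lactase gene whose promoter is printed above, read 4436 and 4336 in the controls and 303 and 860 in the knockouts (-3.06 ± 0.39, adjusted p = 0.00292 by limma). Both knockout values lay far below both controls, and knockout replicate 1 lay far below knockout replicate 2. Fabp1, the liver-type fatty acid binding protein gene, read 9862 and 9730 against 6259 and 7426 (-0.52 ± 0.12, adjusted p = 0.0197).

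Among the CDX2 targets the falls with the smallest p, beside Lct, were Mep1a (-2.62 ± 0.19), a brush border protease, Slc15a1 (-1.27 ± 0.24), the dipeptide transporter, and Heph (-0.77 ± 0.15), the iron oxidase. Cldn2, a claudin of crypt cells, rose from 2350 and 2066 to 3711 and 3211 (0.64 ± 0.12). Cdh17, the intestinal cadherin and a classical CDX2 target, was not called (-0.24 ± 0.10, adjusted p = 0.158 by limma). Among the HNF4 targets, Slc2a2 (-2.32 ± 0.23), the glucose transporter, Espn (-1.60 ± 0.18), an actin bundler of microvilli, Treh (-1.51 ± 0.17), trehalase, and Cideb (-1.78 ± 0.25), which acts in lipoprotein lipidation, fell with the smallest p. Apoa4 read 8968 and 8815 against 5092 and 8904, so that knockout replicate 2 lay between the controls, and was not called (-0.40 ± 0.23, adjusted p = 0.288). Among the GATA targets Slc9a3 (-1.45 ± 0.10), the sodium/proton exchanger, and Npc1l1 (-1.18 ± 0.20), the cholesterol importer, fell with Lct and Dpp4 (-1.30 ± 0.22), a peptidase that is also on the HNF4 list. Sis, the sucrase-isomaltase gene, was listed but not measured here by a probe set naming it alone.

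As for Hnf4g, the target lists were lower in knockout replicate 1 than in knockout replicate 2. Relative to the control mean on the log2 scale, the mean of the HNF4 targets was -1.25 and -0.63, that of the GATA targets -1.17 and -0.64 and that of the CDX2 targets -0.89 and -0.48. Counts of lower genes varied with the array left out. For HNF4 targets, 7 were lower without control replicate 1, 9 without control replicate 2 and 25 without knockout replicate 2. For CDX2 targets, 2 were lower without either control array and 5 without knockout replicate 1, and Cldn2 was not called without control replicate 2 or knockout replicate 1.

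Many of these targets are made by mature enterocytes, whose markers were well above background in these crypt preparations. The enterocyte markers moved in the same direction: 7 of 11 were lower and 0 higher. Most of them, among them Lct, Mep1a, Treh and Fabp1, are also on the target lists, so this count is largely not a separate result. The summed intensity of the list was 84580 and 82820 in the controls and 44860 and 63210 in the knockouts. The lowest single value in the list was 205. Without either control array 4 enterocyte markers were lower, and 11 without knockout replicate 2. In these bulk samples fewer cells of a type and less RNA per cell cannot be told apart. These and the following marker counts stand beside 10.3% lower and 12.6% higher among all genes. Calls were more frequent among bright probe sets, at 32.0% in either direction above the median brightness against 20.0% of all. Among the markers of other cell types, the summed immune list was 3746 and 3677 against 3263 and 3587, with 2 of 11 markers lower (Cd3g and Ptprc), and the summed mesenchymal list was 1329 and 1453 against 1279 and 1142, with Pdgfra the 1 of 8 that was lower. Of 5 tuft cell markers 4 were lower: Alox5ap (-0.82), Rgs13 (-0.69), Dclk1 (-0.57) and Pou2f3 (-0.46). Of 7 goblet cell markers Clca1 (-0.47) and Fcgbp (-0.44) were lower, and of 5 Paneth cell markers Mmp7 was higher (0.42). Of 8 enteroendocrine markers Sct was lower (-0.56) and Cck higher (0.41), and of 6 smooth muscle markers Tagln was higher (0.41). For endothelium, erythroid cells, enteric nerve and acinar pancreas 0 markers were called by limma and 0 had an unadjusted p under 0.05. The lowest single values were 35.6 (immune), 43.6 (mesenchymal) and 63.3 (tuft), the immune one at the background mark of 31.9 to 35.6. Those of endothelium (16.6), smooth muscle (28.1) and acinar pancreas (28.2) lay below that mark. The part of these cell types in the results was not tested. Crypt markers did not share the direction: of 9 measured, Olfm4 fell (-0.62), Top2a and Pcna rose (0.70 and 0.38), Pcna no longer being called with any one of the 4 arrays left out, and the summed list read 20170 and 20310 against 21360 and 20950.

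Regional identity genes of both the jejunum and the ileum were among those that fell. Many of the jejunal genes, such as Lct, Slc2a2, Treh, Npc1l1 and Fabp1, are on the target lists above. Their falls were counted there already. Of 19 jejunal genes 13 fell and 0 rose (median -0.77), with the smallest p for Xpnpep2 (-2.38 ± 0.14), a peptidase, Slc2a2, Treh and Khk (-1.78 ± 0.21), ketohexokinase. Alpi, the intestinal alkaline phosphatase gene, fell as well (-1.69 ± 0.30), as did Lct. These counts too stand beside 10.3% of all genes that fell, a share that was larger among genes above the median brightness. Of the 19 jejunal genes 17 lay above it, as did 13 of the 15 ileal genes described next. Of 15 ileal genes, some of which GATA4 is known to keep low in the jejunum, 9 fell and 0 rose (median -0.62). The tissue is labelled jejunum, and the jejunal gene Lct and the ileal genes Fabp6 and Slc10a2 were all well above background in the controls. Fabp6, the ileal bile acid binding protein gene, read 8614 and 8362 in the controls and 3007 and 3227 in the knockouts (-1.44 ± 0.10, adjusted p = 0.000543 by limma). Slc10a2, the ileal bile acid importer, read 1260 and 894 against 412 and 434 (-1.30 ± 0.16, adjusted p = 0.00264), and Cubn (-4.05 ± 0.19) and Slc51a (-1.84 ± 0.16) fell as well. Without control replicate 2 or without knockout replicate 1, 5 ileal genes were lower.

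For genes of neighbouring organs, the counts stand beside 10.3% lower and 12.6% higher among all genes. Many gastric and many squamous and liver genes were dim, under the array medians of 139 to 143. Examples are Sox2 (22.2 to 35.3), Anxa10 (20.5 to 22.7) and Ptf1a (39.0 to 41.1), against a background mark of 31.9 to 35.6. Genes this dim have little room to fall. The counts and medians of these lists are therefore not a like comparison with those of the bright target lists. Of 18 gastric genes Cblif, the intrinsic factor gene, rose (46.4 and 47.9 against 61.4 and 82.5) and Muc5ac fell (-0.35 ± 0.10). Muc5ac was not called with any one of the 4 arrays left out or with a pseudocount of 1, and Cblif was not called without either control array, without knockout replicate 2 or with a pseudocount of 1 or 64. Of 17 colonic genes 5 fell and 0 rose, with the smallest p for Mettl7b (-1.82 ± 0.11), the carbonic anhydrase gene Car4 (-1.44 ± 0.12), Ceacam20 (-1.75 ± 0.21) and Slc26a3 (-0.70 ± 0.13), an anion exchanger. In the jejunal controls they were above background, at 233 and 211, 3659 and 4189, 686 and 884, and 1439 and 1314 in that order. The hindgut homeobox gene Hoxb13 read 65.7 and 71.3 against 84.7 and 88.2 (0.28 ± 0.10, adjusted p = 0.0985 by limma). Of the genes described next, Ttr was already counted among the HNF4 targets and Prox1 among the other gut epithelial factors. Of 15 squamous and liver genes Ttr and Prox1 fell and 0 rose, and 0 of this list were lower without either control array.

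**Figure D4:**
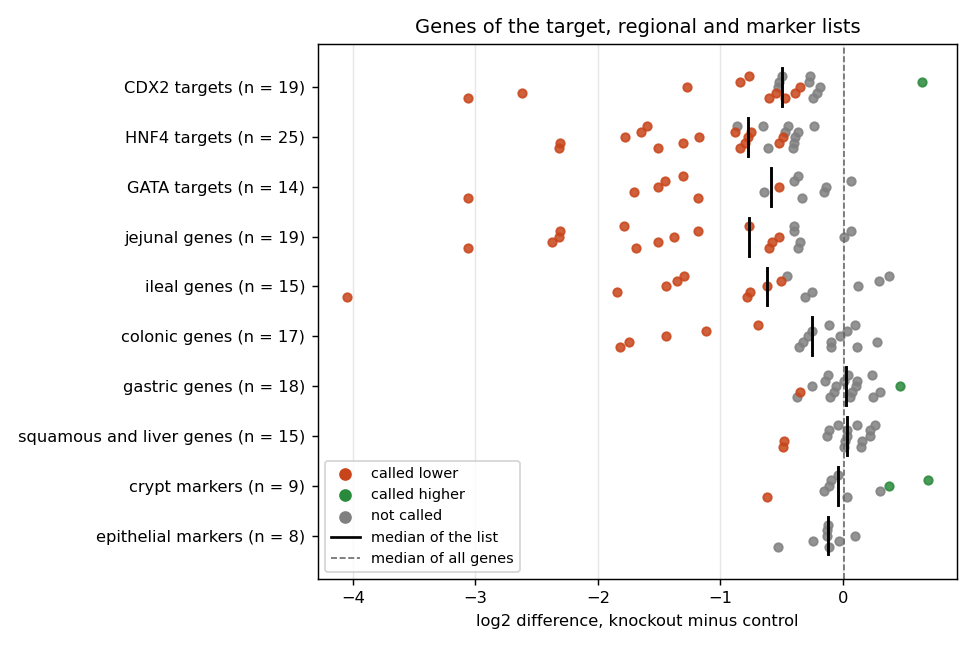
Difference of each measured gene, by its brightest probe set, in the target lists of the factors, the regional lists and the crypt and epithelial markers (points, genes; black bars, median of the list; dashed line, median of all genes at 0.01; points are spread vertically only to be seen). The CDX2, HNF4 and GATA target lists and the jejunal and ileal lists have medians left of the dashed line, between -0.78 and -0.50. The gastric and the squamous and liver lists scatter around it, at 0.03 and 0.03. Many genes of the latter lists were dim and had little room to fall.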

How the data were processed

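Total RNA of jejunal crypts was hybridised to Affymetrix arrays, 2 control and 2 Yy1 knockout, per the labels, which give group and replicate in the sample titles. Per array, the authors deposited a linear intensity for each probe set; summary method, background correction and normalization are not given in the sources used here. Array medians were 139 to 143, so no further scaling was applied. The labels call the replicates biological without naming animals. The limma SEs and p-values rest on the spread between these arrays, moderated toward a variance pooled over all probe sets. The number of arrays limits precision.

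Gene names came from the platform annotation and were brought up to date with a RefSeq table by Entrez ID: of 45101 probe sets, 64 were controls, 34945 had 1 gene, 932 several and 9160 no listed gene. Differences were fitted with limma 3.58.1 in R 4.3.3 on log2(intensity + 16), which understates the change of dim genes. The fit covered all 45037 other probe sets with no block and 7.34 degrees of freedom, residual plus prior. In lists a gene was represented by its probe set with the highest mean log2. The fit was tested on simulated data. Members, lists and tests were chosen with earlier results of these data known. Named are every member, Yy1, up to 4 called genes per list and direction by smallest p, the 3 nearest profiles of each called member, and always Sis, Lct, Alpi, Fabp6, Slc10a2, Apoa4 and Cdh17; 1 further gene of that rule is not reported here. Every other list gene named (Fabp1, Cdx4, Gata1, Gata2, Gata3, Zfpm1, Zfpm2, Hoxb13, Foxa1, Foxa2, Foxa3, Nr5a2, Onecut1, Onecut3, Epcam, Cdh1, Krt8, Vil1, Mki67, Lgr5) was chosen after its values were seen. Alternatives were pseudocounts of 1 and 64, a brightness filter, quantile normalization, median centring, a trended and robust prior, the replicate number as a block, a gene-level fit, the dimmest probe set per gene and each array left out. Sequences came from RefSeq (GRCm38.p6).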

Additional observations from a re-analysis of the deposited data

How the results depend on the processing

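No member probe set changed direction under any alternative run. Of 20 member probe sets, 10 were called as reported, 9 with a pseudocount of 1, 12 with a pseudocount of 64, 11 after quantile normalization and 10 each with median centring and with a trended and robust prior; a filter on brightness called 13 of 19. Leaving out 1 array gave 3 to 9 called, 3 to 7 lower and 0 to 2 higher among the members, and 4051 to 8537 called, 1949 to 3908 lower and 2056 to 4629 higher among all probe sets, where 9013, 4092 and 4921 stood as reported. Fewer arrays leave fewer degrees of freedom in these fits. Probe sets called higher numbered 2 instead of 1 with the brightness filter, with the trended and robust prior and with the replicate block, in each case by the second Onecut2 probe set. The replicate numbers share only a number: deviations of same-numbered arrays correlated at 0.0957 across all probe sets and at 0.115 across those above the median brightness, with only 2 pairs, and the fit with the replicate block called 11 member probe sets, 9 of them lower, and 9961 of all. A gene-level fit, in which not every member probe set enters, called 5 of 8 member genes, as did the reported fit with the brightest probe sets. By the dimmest instead of the brightest probe set, 3 member genes were lower and 0 higher. The ratios of related factors, by the brightest probe sets, kept their sign with pseudocounts of 1 and 64, quantile normalization, median centring and each array left out. They were not rerun with the dimmest probe set per gene, where Gata4 (-0.43) fell more than Gata6 (-0.18), the reverse of the brightest. Leaving out 1 array gave -0.91 to -0.40 for Hnf4g over Hnf4a, 0.46 to 0.60 for Cdx1 over Cdx2 and 0.17 to 0.36 for Gata4 over Gata6. It gave -0.58 to -0.28 for Gata5 over Gata6 and 0.57 to 0.82 for Gata4 over Gata5.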
